A study of Caenorhabditis elegans with 2 samples.

Results

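A set of 6 genes known from the RIA interneurons of the nematode *Caenorhabditis elegans* were examined in a map of the sites occupied by the homeodomain protein CEH-8. They are unc-42, glr-3, glr-6, gar-3, eat-4 and ttx-7, taken by name, and they are 6 of 19973 protein-coding genes. For each, all peaks with a summit in the gene or within 3000 bp of it were collected from the 4 deposited peak lists. The gene ceh-8 itself was left out. Chromatin immunoprecipitation with an anti-GFP antibody and sequencing had been done in 2 biological replicates of 1 group, strain OP760. These worms carry the mutation unc-119(tm4063) and the transgene wgIs760, which holds ceh-8::TY1::EGFP::3xFLAG and the rescue marker unc-119(+). Both replicates were whole L1 larvae of mixed sex, 6 hours of age and starved after bleaching. Every larva therefore carried the tagged ceh-8 transgene, and the chromatin came from all tissues at once. Untagged worms, other stages and sorted cells were not analysed here, and conditions could therefore not be compared. Expression was not measured, and the RIA label of the 6 genes could not be checked in these files.

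RIA is a left and right pair of ring interneurons that receive sensory and head motor signals and take part in thermotaxis, the choice of temperature by the worm. As background, paired-like homeodomain proteins such as CEH-8 bind DNA at sites with a TAAT core, and neurons of worms often keep their identity through homeodomain proteins that act on the genes for receptors, transmitter handling and signalling. The 6 genes cover these roles. The gene unc-42 encodes another paired-like homeodomain protein, glr-3 and glr-6 encode ionotropic glutamate receptor subunits, gar-3 a muscarinic acetylcholine receptor, eat-4 the vesicular glutamate transporter and ttx-7 an inositol monophosphatase.

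Of the 6 genes, 5 had a summit in the list of optimal IDR peaks and unc-42 had none. IDR, the irreproducible discovery rate, measures how alike peaks rank between replicates. The list holds 1891 peaks, and these were also the 1891 strongest of the pooled list. A place in it therefore does not show that a given peak was found in both replicates. By the same rule 15.9% of all protein-coding genes had an IDR summit. The 5 IDR summits lay in different parts of the loci. Those of glr-3 and ttx-7 were upstream of the gene start, that of glr-6 was in the 5′ untranslated region, that of gar-3 in an intron and that of eat-4 past the end of the gene. Their ranks were 573 (glr-3), 1245 (gar-3), 1714 (eat-4), 1731 (glr-6) and 1764 (ttx-7) of 1891, and the last 3, with signals of 91.6 to 93.0, were near the lowest signal of the list, 88.0, where the median was 128. For scale, the strongest of the 7 IDR summits at the ceh-8 locus, a gene that is on the transgene, ranked 23 with a signal of 638. Signal is the authors' value for each peak. It has no stated scale and ranks peaks within a list. The lists also give −log10 q for each peak, where low values mean weak evidence. At the 5 IDR summits it was 2.58 (glr-3), 1.49 (gar-3), 0.881 (eat-4), 0.861 (glr-6) and 0.841 (ttx-7). At the last 3 it was 1.49, 1.76 and 1.05 in replicate 1 and 0.322, 0.110 and 0.387 in replicate 2. A place in the IDR list thus did not mean a small q.

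**Figure D1:**
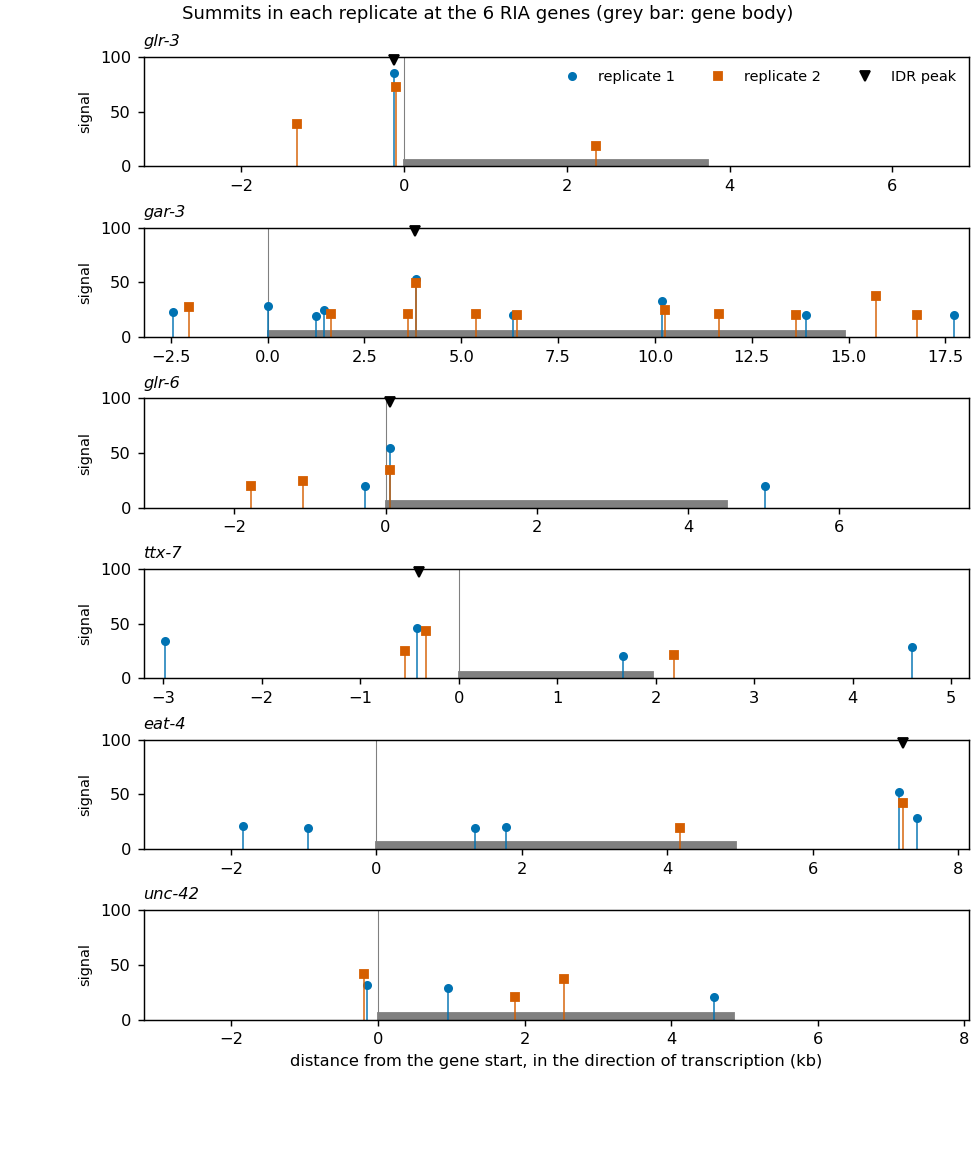
Summits at the 6 genes, with distance from the gene start in kb along the direction of transcription on the x axis and the authors' peak signal on the y axis. Blue circles are replicate 1, orange squares replicate 2, black triangles the position of IDR peaks (at no particular height) and the grey bar the gene; the replicates coincide at the glr-3 start (85.9 and 72.8) and in the gar-3 intron (52.9 and 49.0), and the eat-4 triangle lies past the end of the gene.

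Sequence at 4 sites is from the RefSeq WBcel235 assembly, 5′ to 3′ on the plus strand, to show what lies under the summits discussed. The unc-42 site shown, 206 bp upstream of the gene start, is not an IDR peak and is not its strongest pooled summit. Of gar-3, unc-42 and eat-4 the 101 bases centred on the pooled summit are shown, and of glr-6 the 30 bases that hold both TAAT cores nearest to the summit. Capitals mark TAAT cores on either strand (ATTA where the core is on the minus strand) and, at eat-4, GAGAGA on the minus strand (TCTCTC here). The genes gar-3, unc-42 and glr-6 are on the minus strand and eat-4 is on the plus strand.
gar-3 intron, chrV:14575868-14575968: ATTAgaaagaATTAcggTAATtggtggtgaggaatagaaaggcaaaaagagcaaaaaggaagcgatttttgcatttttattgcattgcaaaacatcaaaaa
glr-6 start, chrX:6840655-6840684: tTAATtggttgatgtgtagacgaTAATtga
unc-42 upstream, chrV:9769547-9769647: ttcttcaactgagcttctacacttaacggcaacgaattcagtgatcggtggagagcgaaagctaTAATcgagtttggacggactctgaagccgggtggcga
eat-4 downstream, chrIII:9144069-9144169: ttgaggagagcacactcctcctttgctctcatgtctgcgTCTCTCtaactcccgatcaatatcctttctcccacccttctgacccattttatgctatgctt
The glr-6 stretch extends the core to TAATTG at both marked places. The gar-3 window has 3 cores, all on one side of the summit, the innermost of them again extended to TAATTG. The unc-42 window has 1 core and the eat-4 window none.

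The replicates were then compared at each site. A site was called strong in a replicate when its peak was among the 1891 strongest of that replicate's 30000, which means a signal of at least 50.4 in replicate 1 and 45.5 in replicate 2. In replicate 1, 4 of the 6 genes had a strong summit (15.6% of all genes did), namely glr-3, glr-6, eat-4 and gar-3. In replicate 2, 2 did (15.4% of all genes), glr-3 and gar-3. The −log10 q of these summits in replicate 2 was 1.96 at glr-3 and 0.678 at gar-3. Strong is a cutoff on rank alone, and at gar-3 it did not mean a small q in that replicate. These 2 genes were also the ones with strong summits in both replicates within 200 bp of each other, against 10.1% of all genes. With the 5000 strongest peaks of each replicate, 5 of the 6 genes had such a shared summit (16.7% of all genes), and with the 10000 strongest all 6 did (24.4%). The genes are few, they were chosen with earlier results of these data known, and no test was made of these counts. Weak peaks carry little information on a gene, since 88.4% of all genes had some summit in the pooled list, 87.9% in replicate 1 and 90.0% in replicate 2. All 6 genes had one in each of these 3 lists.

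The genes could be put in order only in part. By the rank of the strongest summit, 9 of the 15 pairs of genes stood in the same order in both replicates. Unrelated orders would also share many pairs, and this count was not tested. The gene glr-3 was first in both replicates and in the pooled list. The gene gar-3 came before ttx-7, eat-4 and unc-42 in each, and ttx-7 came before unc-42. The place of glr-6 turned from the second of 6 in replicate 1 to the last in replicate 2, so it could not be told apart from gar-3, eat-4, ttx-7 or unc-42. The order of eat-4 against ttx-7 and against unc-42 also changed between replicates. All these orders are for the flank of 3000 bp. With 5000 bp, gar-3 (ranks 606 and 459 in replicates 1 and 2) came before glr-3 (658 and 690), though not in the pooled list (577 and 573). There ttx-7 came before both in replicate 2 (202) and the pooled list (379), and after both in replicate 1 (1132). With 1000 bp, eat-4 was last of the 6 in the pooled list (29085), replicate 1 (23258) and replicate 2 (29688).

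**Figure D2:**
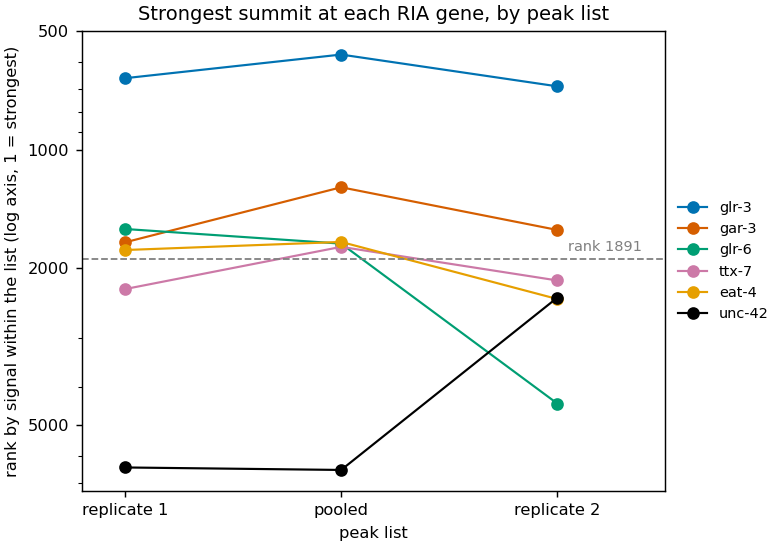
Rank by signal of the strongest summit at each gene in replicate 1, the pooled list and replicate 2, on a log axis with the strongest at the top; the dashed line is rank 1891, the length of the IDR list. The line of glr-3 runs highest (658, 573 and 690) and only glr-3 and gar-3 stay above the dashed line in all 3 lists; the pooled point of unc-42 (6502) is a different site from its replicate points.

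The regulator gene unc-42 (WBGene00006778) is required, as background, for the fate and glutamate receptor expression of several interneurons. It lies on chromosome V from 9764534 to 9769391. None of its 5 pooled summits reached the IDR list. The 3 strongest were nearly alike, with signals of 55.7, 54.8 and 54.6 (ranks 6502, 6867 and 6925) against a lowest IDR signal of 88.0. Only the third, 206 bp upstream of the gene start, had a counterpart within 200 bp in both replicates. There the signal was 31.5 in replicate 1 (rank 6408) and 41.9 in replicate 2 (rank 2374), with summits 51 bp apart. The first, in a coding exon, had a peak in replicate 2 alone (signal 37, rank 3492). The second, in an intron, had one in replicate 1 alone (signal 29.3, rank 8059). The upstream site was thus the only one of these 3 with a listed peak in both replicates, and it was stronger in replicate 2 by rank. Its −log10 q was low in every list, 0.0369 pooled, 0.291 in replicate 1 and 0.323 in replicate 2. These values do not establish a bound site.

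Of the 2 glutamate receptor genes, glr-3 (WBGene00001614, chromosome I, 7117808 to 7121545, plus strand) had the best replicated site. Its IDR summit lay 125 bp upstream of the gene start, at 7117683. The signal was 85.9 in replicate 1 (rank 658, within the strongest 2.19%), 72.8 in replicate 2 (rank 690, within 2.30%) and 161 in the pooled list (rank 573). The replicate summits were 28 bp apart. A second pooled summit, 1307 bp upstream and inside a coding exon of the neighbour K10D3.6, was weak (signal 42.3, rank 15989). It had a peak in replicate 2 (signal 38.5, rank 3040) and none in replicate 1. The glr-3 body held no summit in replicate 1 and 1 in replicate 2, at rank 29208.

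At glr-6 (WBGene00001617, chromosome X, 6836210 to 6840720, minus strand) the replicates put the summit at nearly the same base and gave it unequal strength. The IDR summit, at 6840665, lay 55 bp inside the gene in its 5′ untranslated region. It was also 593 bp upstream of the start of asg-2, a gene that runs the other way. The signal was 54.9 in replicate 1 (rank 1589) and 34.7 in replicate 2 (rank 4409), a 2.77-fold difference in rank, while the summits were 3 bp apart. The IDR rank was 1731 with a signal of 92.5. No other pooled summit lay at this locus. Each replicate list had 2 more, at ranks from 14470 to 24925 of 30000.

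The receptor gene gar-3 (WBGene00001519, chromosome V, 14564819 to 14579719, minus strand) is, as background, coupled to Gq signalling and was linked to calcium responses in RIA. It is the longest of the 6, and the locus held 9 summits in the pooled list, 9 in replicate 1 and 11 in replicate 2. Of these, 1 site stood above the rest in all lists. Its summit at 14575918 was intronic, 3801 bp downstream of the gene start. The signal was 52.9 in replicate 1 (rank 1718), 49.0 in replicate 2 (rank 1598) and 111 in the pooled list (rank 1245), and the replicate summits were 11 bp apart. The next pooled summit, in an intron 10263 bp inside the gene, had a signal of 58.8 (rank 5417), with ranks of 5506 and 14892 in replicates 1 and 2. At the gene start itself replicate 1 had a peak 3 bp inside the gene (signal 28.8, rank 8522), and neither replicate 2 nor the pooled list had one within 200 bp.

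The transporter gene eat-4 (WBGene00001135, chromosome III, 9136887 to 9141827, plus strand) is what makes a neuron glutamatergic, since its product loads glutamate into synaptic vesicles. Its only IDR summit, at 9144119, was 2292 bp past the end of the gene. It lay 92 bp upstream of another gene, ZK512.11, and in an intron of ZK512.2, so that by the nearest start it belongs to ZK512.11. The signal was 51.8 in replicate 1 (rank 1797), 41.8 in replicate 2 (rank 2393) and 93.0 in the pooled list (rank 1714). Upstream of eat-4 within 3000 bp there were 2 summits in replicate 1, with signals of 20.7 and 19.3 (ranks 20953 and 24536), and none in replicate 2 or the pooled list. The body of eat-4 held 2 summits in replicate 1 and 1 in replicate 2, at ranks 23258, 25561 and 29688.

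The gene ttx-7 (WBGene00008765, chromosome I, 7300999 to 7302975, minus strand) encodes an enzyme that recycles inositol, and mutants are known for a defect in the placing of synaptic proteins in RIA. Its IDR summit, at 7303380, lay 405 bp upstream of the start, in a coding exon of the next gene upstream, F13G3.6. The signal was 46.3 in replicate 1 (rank 2258), 43.4 in replicate 2 (rank 2147) and 91.6 in the pooled list (rank 1764). The ranks in the 2 replicates were close, but both were below the strongest 1891. The replicate summits were 87 bp apart, the widest spacing among the 5 IDR sites. In replicate 2 the summit fell in the 3′ untranslated region of F13G3.6.

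**Figure D3:**
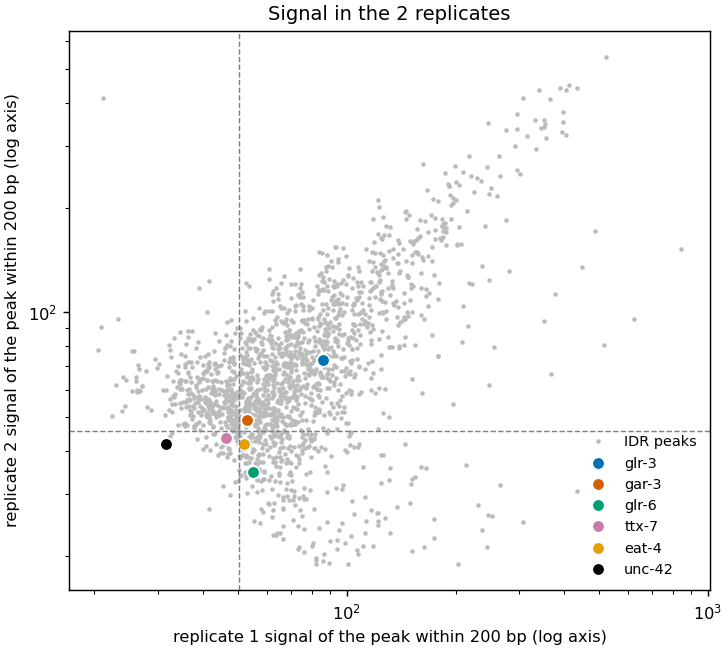
Signal of the replicate 2 peak (y axis) against that of the replicate 1 peak (x axis) within 200 bp of each IDR peak (grey), both on log axes, with the best site of each of the 6 genes that has a peak in both replicates in colour; dashed lines are the signals at rank 1891. Only glr-3 (85.9, 72.8) and gar-3 (52.9, 49.0) lie above both dashed lines, glr-6 and eat-4 lie above that of replicate 1 alone, and ttx-7 and unc-42 lie below both.

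The sites were set beside IDR peaks of like strength. Of all 1891 IDR peaks, 1097 were strong in both replicates (58.0%, exact 95% interval 55.7% to 60.2%, over peaks as counts). Of the 473 strongest IDR peaks 91.1% were, of the next 473 (ranks 474 to 946) 83.3%, of those at ranks 947 to 1418 236 of 472, and of the 473 weakest 7.61% (36). The site of glr-3 is in the second of these groups and that of gar-3 in the third. The sites of glr-6, ttx-7 and eat-4 are all in the last, where most peaks were not strong in both. The groups are cut by a signal pooled from the same replicates, and strong is a rank cutoff at the length of the list. A low share in the last group thus follows in part from these definitions. Within 200 bp, 11 of the IDR peaks had no replicate 1 peak and 116 had no replicate 2 peak. Where both replicates had a peak, their summits were a median of 24.0 bp apart. The spacings at gar-3 (11 bp) and glr-6 (3 bp) were below that, and those at glr-3 (28 bp), eat-4 (45 bp) and ttx-7 (87 bp) above it.

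Longer loci held an IDR summit more often. Of the 9856 genes with loci under 8000 bp (the gene and 3000 bp on each side), 12.9% had an IDR summit. The share was 15.5% from 8000 to 10000 bp, 21.5% from 10000 to 15000 bp and 27.6% at 15000 bp and over. The gene ttx-7 is in the first class, glr-3 in the second, glr-6, eat-4 and unc-42 in the third and gar-3, with 20901 bp, in the last. An intronic site in gar-3 is therefore set against a class in which 18.2% of genes had a strong summit in both replicates, and the upstream site of glr-3 against one in which 9.69% did.

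**Figure D4:**
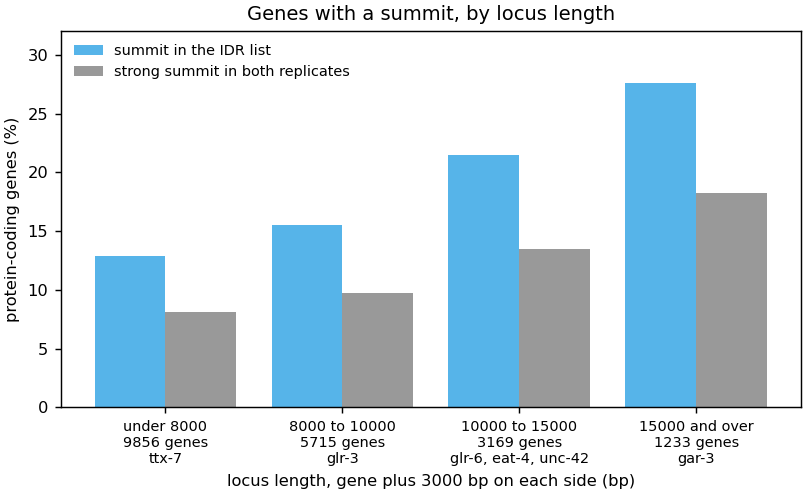
Share of protein-coding genes with an IDR summit (blue) and with a summit strong in both replicates (grey), in percent, by the length of the gene plus 3000 bp on each side; the number of genes and the RIA genes in each class stand under the bars. Both shares rise with length, the first from 12.9% to 27.6% and the second from 8.14% to 18.2%.

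The limit of 3000 bp left out stronger peaks beside 2 of the genes. An IDR summit of rank 379 (signal 192) lay 3721 bp past the end of ttx-7, nearest to the start of F13G3.12, with ranks of 1132 in replicate 1 and 202 in replicate 2. One of rank 577 (signal 161) lay 3407 bp upstream of gar-3, nearest to the start of Y40H4A.2, with ranks near it of 606 in replicate 1 and 459 in replicate 2. Just inside the limit, the farthest summit was one of replicate 1 at 2985 bp upstream of ttx-7 (signal 34.4, rank 4848). Both stronger peaks were ahead of the sites counted for these genes, and both are nearest to another gene.

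The TAAT core was looked for under the sites. Within 50 bp of the strongest pooled summit, TAAT was present at 4 of the 6 genes on either strand, against 47.8% of IDR peaks. The unc-42 summit counted here is the one in its coding exon, which is not an IDR peak and not the site printed above. At glr-3 there were 5 cores, 2 of them starting within 1 bp of the summit, at gar-3 3, at glr-6 2 and at ttx-7 1. TAATTG, which contains the core, was present at glr-6, ttx-7 and gar-3, against 11.6% of IDR peaks. Its copies at glr-6 began 9 bp before and 13 bp after the summit, and that at ttx-7 began 12 bp from it. TAATTA, also with the core, was at none of the 6 (6.93% of IDR peaks), nor was the inverted repeat TAATNNNATTA (1.80%) or WGATAR, the GATA factor site (14%). GAGAGA, which cannot overlap the core by more than 1 letter, was at eat-4 alone (21.6% of IDR peaks).

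Base composition moved with these matches. The windows at glr-3, glr-6 and gar-3 had a GC content of 25.7%, 30.7% and 31.7%, that of ttx-7 42.6%, and those without TAAT, at eat-4 and at the coding exon site of unc-42, 47.5% and 52.5%. The median of IDR peaks was 45.5%. Among the 510 IDR peaks with a GC content of at most 38.6%, 89.6% had TAAT and 28.2% had TAATTG. The part of base composition in the matches at the 6 genes was not tested.

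Other genes with related roles were looked up in 6 lists, of which 51 genes matched. Of these, 7 had an IDR summit by the same rule (13.7%, where 15.9% of all genes did) and 5 had a strong summit in both replicates (9.80%, where 10.1% of all genes did). Among 14 other glutamate receptor subunits, 2 had an IDR summit (14.3%, where 15.9% of all genes did). The first was glr-2, an AMPA-type subunit, with a summit 86 bp upstream (rank 1647, and ranks 1660 and 1332 in replicates 1 and 2). The other was glc-4, a glutamate-gated chloride channel, with a summit 1515 bp upstream (rank 797, and ranks 449 and 1918). Of these 2, glr-2 alone was strong in both replicates. None of the 8 other glutamate transporters, of the 2 other muscarinic receptors gar-1 and gar-2, or of the 10 other paired-class and paired-like homeobox genes had an IDR summit.

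Of 11 genes of inositol phosphate signalling 3 had an IDR summit (27.3%, where 15.9% of all genes did). The strongest was at egl-30, the gene for a Gq alpha subunit. That summit lay 51 bp upstream (170 bp from the start of C53H9.4 and 727 bp from that of rpl-27, a ribosomal protein gene). It ranked 47 with a signal of 458, 40 in replicate 1 and 70 in replicate 2. The summit at ipp-5, an inositol phosphatase, was 308 bp upstream (rank 1450, and ranks 1409 and 1518 in replicates 1 and 2). That at plc-2, a phospholipase C, was nearer to another gene, cyn-3 (rank 1701, and ranks 1345 and 2683). Of 6 thermotaxis regulators 2 had an IDR summit (33.3%, where 15.9% of all genes did). The homeobox gene ttx-3, which specifies the AIY interneurons that connect to RIA, had it 310 bp upstream (rank 693, and ranks 1434 and 440). The calcineurin catalytic subunit gene tax-6 had it 2286 bp upstream in a non-coding RNA gene (rank 1306, and ranks 1436 and 1467).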

How the data were processed

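Per the file headers, the authors called peaks on ce11 for each replicate against a control alignment and on both replicates together, and derived the IDR list from those 3 lists. The aligner, the peak caller and its threshold were not given in the sources used here. Peaks were ranked within each list by the deposited signal. The deposited −log10 q-values were used for an alternative ranking and are given for the main sites, and no q threshold was applied. All 1891 IDR peaks were found in the pooled list, where they were the strongest by signal. Read depth is unknown.

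Summits (start plus offset) were set beside Ensembl release 115 gene models of WBcel235, the same assembly; 0 peaks ran past a chromosome end. A strong peak was among the 1891 strongest of a replicate, and sites matched within 200 bp, the strongest peak there being taken. A promoter was the 1000 bp upstream of a start. Motifs were searched on both strands in 101 bp windows. No test between groups was possible. The interval of a share is exact binomial and covers counting error only.

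The step that gives summits to genes was tested on simulated data and found 200 of 200 planted genes. Python 3.11.15 with numpy 2.4.6, pandas 2.3.3, scipy 1.17.1 and matplotlib 3.10.9 was used. The 6 genes, the role lists and the alternatives were chosen with earlier results of these data known. Genes named are the 6, up to 3 per role list with the strongest IDR peaks, and genes whose start is nearest to a named summit. Also named, after the values were seen, are gar-1, gar-2 and genes that overlap a named summit or start within 1000 bp of it. The names ttx-4 and tax-1 matched no gene symbol. The split by GC content was added after seeing the data.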

Additional observations from a re-analysis of the deposited data

How the results depend on the processing

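The count of 5 genes with an IDR summit was 4 with a flank of 1000 bp or by the nearest start (eat-4 lost), 5 with 5000 bp or by interval overlap, 2 in the gene body alone and 1 (glr-3) among the 945 strongest IDR peaks. With the strongest peaks of 1 replicate alone it ranged from 2 (replicate 2) to 4 (replicate 1). The number of IDR summits at the genes, also 5, gave 2, 1 and 2 to 4 in those last settings and 7 with a flank of 5000 bp. The share of all genes with an IDR summit, 15.9%, was 9.90% with 1000 bp, 21.2% with 5000 bp, 2.87% in the gene body, 9.06% with the 945 strongest and 7.54% by the nearest start, and 15.4% to 15.6% with 1 replicate alone. The 2 genes strong in both replicates were 1 (gar-3) in the gene body (1.35% of all genes), 5 with the 5000 and 6 with the 10000 strongest peaks, and 3 with a flank of 5000 bp, where ttx-7 joined (13.5% of all genes). Within 100 bp of the summit TAAT was at 5 genes (69.9% of IDR peaks), TAATTG at 5 (19.9%), TAATTA at 1 (12.8%) and WGATAR at 1 (27.9%). Among the 477 IDR peaks with a GC content of at most 36.3% in that window, these shares were 97.5%, 39.2%, 29.8% and 40.5%. The windows of glr-3, glr-6 and gar-3 were in that range (31.8%, 32.8% and 35.3%), and those of the other genes were above it. Ranked by −log10 q, 19 of the 23 ranks of the strongest summits moved, 18 of them by under 10%, and glr-3 in replicate 1 went from 658 to 1, a rank it shares with all 794 peaks at the highest value. No paired analysis was possible because the 2 replicates form 1 group. With 2 replicates, unknown read depth and no second group, ranks near 1891 at glr-6, ttx-7 and eat-4 cannot be given an error.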
